A study of Arabidopsis thaliana with 8 samples.

Results

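Inflorescences of Arabidopsis thaliana carrying a T-DNA insertion in AT1G69690, the gene of the transcription factor TCP15, were compared with control inflorescences on Affymetrix ATH1 arrays. The insertion line is labelled T14 and the control CON, each with 2 of the 8 arrays of the series, and all 22746 probe sets that are not array controls were considered. The other arrays served to estimate the spread and as points of reference. They are 2 of the line labelled T13, whose insertion lies in AT3G47620, the TCP14 gene, and 2 of plants labelled HET, which are heterozygous for insertions at both loci. The second HET array is titled a repeat, and whether it holds the same RNA as the first is not stated. All groups were ecotype ws (Wassilewskija), grown in greenhouse compost at 18 °C with 16 h of light and sampled as pools of 10 plants at growth stage 6.0. The zygosity of T14 and T13 is not given in the labels. Only 1 line stands for each locus, so that insertion and genetic background of the line cannot be told apart.

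TCP proteins are a plant family of transcription factors with a shared DNA-binding domain of the basic helix-loop-helix type. TCP15 and TCP14 belong to class I of this family, whose members are known for roles in cell proliferation, internode growth and the shaping of leaves and flowers, and which often act redundantly. T-DNA is DNA that Agrobacterium transfers into plant cells, and it can interrupt a gene where it integrates.

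Intensity is the deposited brightness of a probe set on a linear scale. Differences are given as T14 minus CON on the log2(intensity + 16) scale, which understates the change of dim genes. The test was limma's moderated test over 15045 probe sets bright enough to be kept, and a probe set was called at a Benjamini-Hochberg adjusted p under 0.05. Of the kept probe sets, 8286 are annotated to 1 gene. The gap is the distance on the same scale between the nearest arrays of the groups, and a probe set is termed consistently lower or higher when its gap is at least 0.5, or 1.41-fold. Whether the 2 arrays of a group stem from separate plant pools is not stated in the labels. The p-values therefore cover the spread between arrays, and that spread may be technical.

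The 2 T14 arrays had a rank correlation of 0.948 and the 2 CON arrays one of 0.958, within the range of 0.938 to 0.965 found between arrays of different groups. The median absolute log2 difference between the T14 arrays was 0.251, that between the CON arrays 0.234, and that between a T14 and a CON array 0.246. At the median probe set, a T14 and a CON array thus differed by more than the CON arrays did from each other and by less than the T14 arrays did. Scanner background was 84.9 and 85.12 on the T14 arrays, against 112.87 and 87.36 on the CON arrays. The 25S rRNA control read 1437.5 and 1016.9 in T14, against 687 and 3321.9 in CON. The inflorescence label could be checked through 2 of 10 marker genes only, UFO and CLV3, and neither was bright enough to be kept, with summed intensities of 10.8 and 6.8 in T14, against 12.9 and 7.5 in CON. Markers of tapetum and pollen, tissues of the flower, were measured in both groups and are described with those genes.

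TCP15 itself was low in the line that carries the insertion. Its intensity was 86 and 68.8 in T14, 205.9 and 204.1 in T13, 188.2 and 221.8 in HET, and 198.2 and 244 in CON. Both T14 arrays lay below all 6 others, and the gap to CON was 1.07. The log2 difference from CON was -1.34 (SE 0.2), and it missed the threshold (limma adjusted p = 0.0606), as it did in each of 19 alternative settings. The differences from T13 and from HET both came to -1.25 and passed in limma (adjusted p = 0.0244 and 0.01). That from T13 passed in 12 of 18 alternatives, and was lost with scanner background as a covariate (adjusted p = 0.454), without either T13 array (0.145 and 0.168) and without T14 replicate 2 (0.146), among others. That from HET passed in 14 of 18, and was lost with the 5'/3' signal ratio of the GAPDH control as a covariate (adjusted p = 0.476), without either HET array (0.0596 and 0.0829) and without T14 replicate 2 (0.098).

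These covariates ended more than the calls of TCP15. Of the 8 differences from T13 that are named as passing, 0 passed with scanner background as a covariate (limma adjusted p = 0.299 to 0.999), and of the 9 from HET, 0 passed with the GAPDH ratio (0.105 to 0.999). Some of these calls were lost with little change in the log2 difference and others with a smaller one. With scanner background, TCP15 differed from T13 by -1.44, AT1G68875 by -2.45 (-2.44 without it) and DI21 by -1.30 (-1.65). With the GAPDH ratio, TCP15 differed from HET by -1.26, ATA27 by -2.27 (-2.58 without it) and AT3G05500 by -1.01 (-1.97). Scanner background was 98.49 and 111.86 on the T13 arrays, and the GAPDH ratio was highest on HET replicate 1, at 0.345. Over all tested probe sets, 0.12% were called lower and 0.379% higher in T14 than in T13, and 0.239% lower and 0.731% higher than in HET. Where the insertion sits relative to the TCP15 probes is not given, so the remaining signal cannot be assigned to an intact or a truncated transcript.

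Few other probe sets passed. In T14 against CON, 3 were called lower (0.0199% of those tested) and 0 higher in limma. At an unadjusted p under 0.05 there were 875, of which 453 were lower and 422 higher, where 752 are obtained by chance. The smallest adjusted p of any higher probe set was 0.281.

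AT1G23960, a gene on chromosome 1, fell the furthest of the called genes that have a probe set of their own. It had 2.5 and 5.7 in T14, 68.6 and 51.2 in T13, 3.9 and 5.7 in HET, and 100.3 and 100.2 in CON. The signal was close to 0 on the T14 and HET arrays and clearly present on the other 4. The log2 difference from CON was -2.54 (SE 0.295, limma adjusted p = 0.0341).

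AT1G68875, also on chromosome 1, fell in T14, while T13 and HET did not lie below CON. It stood at 47.3 and 41.4 in T14, against 328.3 and 296 in T13, 664.1 and 328.2 in HET, and 247.1 and 259.2 in CON. Both T14 arrays were below every other array, the nearest by 2.06 on the log2 scale. The log2 difference from CON was -2.16 (SE 0.277, limma adjusted p = 0.0341), and T14 was also lower than T13 (-2.44, limma adjusted p = 0.0165) and HET (-3.005, limma adjusted p = 0.000546).

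The called probe set 245651_s_at is annotated to 5 loci with neighbouring numbers on chromosome 1, AT1G24800, AT1G24881, AT1G25055, AT1G25150 and AT1G25211, and cannot be assigned to any of them. It read 45.3 and 40 in T14, 253.2 and 249.1 in T13, 36.9 and 114 in HET, and 474 and 304.5 in CON. T14 and HET were low and T13 and CON high, with no overlap between T14 and CON. The log2 difference was -2.76 (SE 0.349, limma adjusted p = 0.0341). None of the 3 calls passed in limma without CON replicate 1, where their log2 differences of -2.54, -2.19 and -2.45 were close to those with all arrays (adjusted p = 0.287 each), without CON replicate 2 (-2.54, -2.13 and -3.06, adjusted p = 0.0986 to 0.193) or without T14 replicate 1 (-2.42, -2.23 and -2.82, adjusted p = 0.12 to 0.138). Without T14 replicate 2, AT1G23960 passed (-2.65, adjusted p = 0.0346) and the other two did not. Over 19 alternatives AT1G23960 and 245651_s_at passed in 11 and AT1G68875 in 9.

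Since so few probe sets passed, genes were ranked by the gap between the groups. Of the kept probe sets with 1 gene, 66 were consistently lower in T14 (0.797%) and 49 consistently higher (0.591%). Among all kept probe sets the counts were 123 lower (0.818%) and 83 higher (0.552%). A gap of at least 1 was reached by 13 of the 1-gene probe sets, all lower (0.157%), and by 28 of all kept probe sets, again all lower (0.186%). The widest gap on the higher side was 0.811 over all kept probe sets, or 1.75-fold, against 2.42 on the lower side. Merely non-overlapping groups were common, at 14.8% lower and 20.4% higher among 1-gene probe sets and 15.8% lower and 19.6% higher among all. With quantile normalization the consistent probe sets were 141 lower and 61 higher, and with median centring 151 and 61, so the lower ones made up 69.8% and 71.2%, against 59.7% with the deposited scaling. The majority did not hold in every setting. Lower ones made up 70.2% with a pseudocount of 32, 51.9% with a pseudocount of 1 and 50% without the filter (168 lower and 168 higher). They were the minority without CON replicate 1 (316 lower and 389 higher, 44.8%) and without CON replicate 2 (531 and 660, 44.6%).

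**Figure D1:**
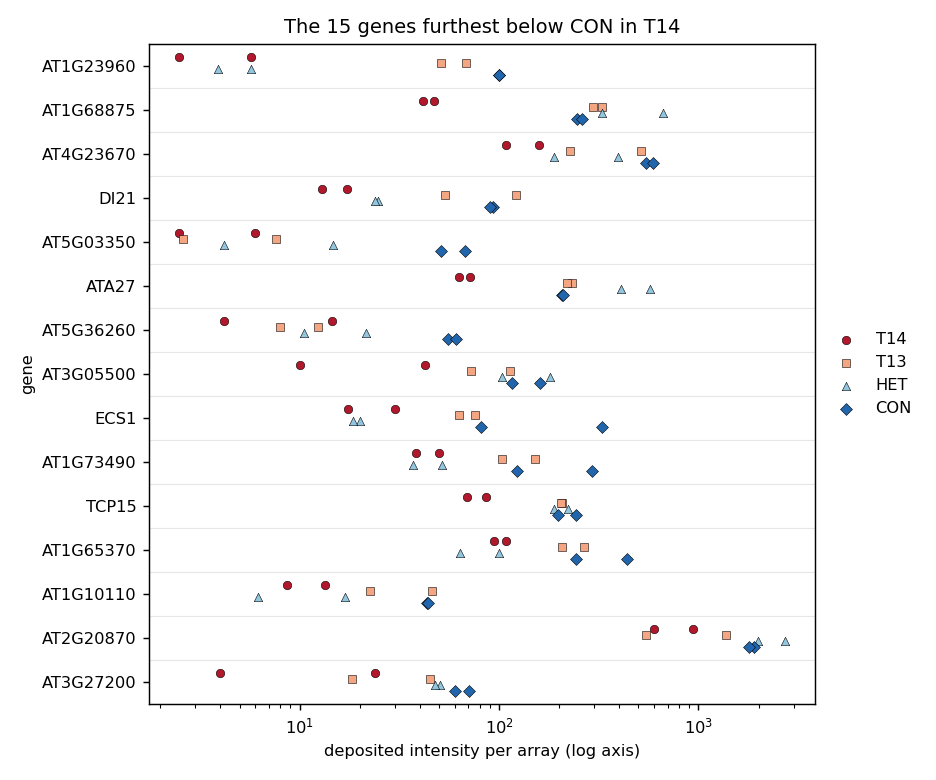
Intensity of the 15 genes with the widest gap below CON, on a log axis, with 1 point per array and genes ordered by gap. In each gene both T14 arrays lie left of both CON arrays, while T13 and HET take either side, as in AT1G23960, where HET joins T14, and ATA27, where HET lies above CON.

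The 15 genes furthest below CON had gaps from 0.933 to 2.42 and log2 differences from -2.54 to -1.16. No shared function was tested. Apart from AT1G23960 and AT1G68875, none was called in limma, and their adjusted p-values reached 0.765.

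AT4G23670, of the major latex protein family, had 158.3 and 107.8 in T14, 515.3 and 227.7 in T13, 395 and 188.1 in HET, and 548 and 591.6 in CON. Its gap was 1.69 and its log2 difference -1.99 (limma adjusted p = 0.178). All T14 values lay below those of every other array. DI21, named as a drought-induced gene, read 17.3 and 13 in T14, 53.4 and 121.1 in T13, 24.7 and 24 in HET, and 93.7 and 89.6 in CON. The difference from CON was -1.79 and did not pass (limma adjusted p = 0.13), whereas that from T13 did (-1.65, limma adjusted p = 0.0387) and held in 7 of 18 alternatives.

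A pair of genes had clear signal in CON alone. Both passed the filter only through their CON arrays, so high values in CON were a condition of their being tested. AT5G03350, of the legume lectin family, had 2.5 and 6 in T14, 2.6 and 7.6 in T13, 4.2 and 14.7 in HET, and 67.7 and 51.2 in CON. AT5G36260, an aspartyl protease gene, had 4.2 and 14.6 in T14, 8 and 12.3 in T13, 10.5 and 21.5 in HET, and 55.5 and 60.9 in CON. Their log2 differences of -1.89 and -1.58 came with limma adjusted p-values of 0.434 and 0.47, and the low values on the 6 arrays of the other groups mean that T14 is not set apart from T13 or HET by these genes.

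AT3G05500, a member of the rubber elongation factor family found on lipid droplets, read 42.7 and 10.1 in T14, 113.3 and 72.1 in T13, 181.1 and 103.1 in HET, and 115.8 and 160.5 in CON. T14 lay below all 6 other arrays, and the difference of -1.96 from CON did not pass (limma adjusted p = 0.178). The cell wall protein gene AT2G20870 was bright, with 934.6 and 598.7 in T14, 1381.8 and 548.8 in T13, 2720 and 1981.1 in HET, and 1909.5 and 1802.2 in CON. Its T13 arrays straddled the T14 values, and the difference from CON was -1.29 (limma adjusted p = 0.679). AT3G27200, of the plant cupredoxin family, had 23.8 and 4 in T14, 45 and 18.3 in T13, 50.4 and 47.7 in HET, and 60 and 70.9 in CON. The log2 difference was -1.53 (limma adjusted p = 0.47).

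ECS1, AT1G73490, AT1G65370 and AT1G10110 lie on chromosome 1 and were low in HET as well. ECS1, which encodes a cell wall protein, had 30 and 17.4 in T14, 75.6 and 62.9 in T13, 20 and 18.5 in HET, and 328 and 81.1 in CON. The CON arrays lay far apart for this gene, and its difference of -2.22 passed in limma in 1 of 19 alternatives, that without CON replicate 2 (-3.13, adjusted p = 0.0108 against 0.216 with all arrays). AT1G73490 read 38.4 and 50.1 in T14, 151.1 and 103.4 in T13, 51.5 and 37 in HET, and 292.8 and 122.9 in CON. AT1G65370, of the TRAF-like family, had 108.2 and 94.8 in T14, 206.7 and 266.6 in T13, 63.7 and 99.8 in HET, and 438.6 and 244.4 in CON. The F-box gene AT1G10110, of a family that selects proteins for degradation, had 13.4 and 8.6 in T14, 45.9 and 22.6 in T13, 16.8 and 6.2 in HET, and 43.7 and 44.1 in CON. In each of these genes the T14 and HET arrays overlapped and lay below T13 and CON.

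Both T14 arrays lay at least 0.5 below all 6 other arrays in 10 probe sets with 1 gene (0.121%), and at least 0.5 above them in 2 (0.0241%). The lower ones were TCP15, AT1G68875, ATA27, AT3G05500, AT5G48210, AT4G23960, AT1G66850, AT2G03850, AT1G20120 and AT1G30020. AT5G48210 had 63.9 and 58.6 in T14, 181.3 and 188.7 in T13, 419.5 and 298.2 in HET, and 133.2 and 159.5 in CON. It was lower than in T13 (-1.38, limma adjusted p = 0.0244) and HET (-2.26, limma adjusted p = 0.000546), while the difference from CON did not pass (-1.07, limma adjusted p = 0.205).

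AT1G66850, of the lipid-transfer protein family, stood at 429.3 and 330.3 in T14, 1257.2 and 877.9 in T13, 1033.9 and 984.9 in HET, and 1417.7 and 661.3 in CON. The GDSL-type lipase gene AT1G20120 had 54.8 and 67.8 in T14, 139.7 and 109.1 in T13, 215.3 and 135.2 in HET, and 143.4 and 105.7 in CON. Neither passed against CON in limma (log2 -1.33 and -0.85, adjusted p = 0.47 and 0.679). Other GDSL-type lipase genes among the consistently lower ones were AT5G33370 and AT5G45960. AT5G33370 had 456.7 and 230 in T14, 648.6 and 308.6 in T13, 1225.6 and 778.9 in HET, and 928.4 and 744.1 in CON, with T13 overlapping T14. AT5G45960 had 59.6 and 73 in T14, 109.9 and 108.8 in T13, 95.5 and 83.3 in HET, and 139.8 and 137.7 in CON. Members of this family that did not differ were not counted.

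The tapetum is the inner layer of the anther wall that feeds developing pollen. The list of tapetum and pollen coat genes held ATA27, a beta-glucosidase, AT5G07230, known as A9, and the basic helix-loop-helix regulator AMS. It also held the receptor kinase EMS1 and the oleosin OLEO3, which are not among the tapetum markers summed below. ATA27 was lower in T14 than on any other array, with 62.9 and 71.9 in T14, 232.1 and 220.1 in T13, 568.7 and 407.8 in HET, and 207.2 and 209.9 in CON. The difference from CON was -1.43 (SE 0.208), just short of the threshold (limma adjusted p = 0.0606), and it passed with quantile normalization (-1.46, adjusted p = 0.0437) and in no other of 19 alternatives. Against T13 and HET it was lower by limma (-1.54 and -2.58, adjusted p = 0.02 and 0.000285). The call against T13 was lost with scanner background as a covariate (adjusted p = 0.455), without the filter (0.0719), without either T13 array (0.108 and 0.0991) and without T14 replicate 2 (0.0564). The call against HET was lost with the GAPDH ratio as a covariate (0.105) and held in the other 17 of 18 alternatives. A9 had 30.5 and 119.1 in T14, 242.5 and 262.6 in T13, 502.2 and 268.1 in HET, and 156.4 and 192.7 in CON. Its T14 arrays lay far apart from each other, though both below CON, and the difference of -1.26 did not pass (limma adjusted p = 0.768).

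The other genes of the tapetum and pollen coat list moved less. EMS1 had 125.8 and 182.4 in T14 against 189.7 and 278.8 in CON (log2 -0.55), and AMS 22.7 and 29.9 in T14 against 23.6 and 23.8 in CON (log2 0.09). Of the 5 kept genes 0 were called, 1 was consistently lower and 3 had non-overlapping lower values. The list had a median log2 difference of -0.55, where all 1-gene probe sets had one of 0.04. It was drawn up with earlier results of these data known. The 3 of 5 tapetum markers with a probe set summed to 116.1 and 220.9 in T14, 519.9 and 530.1 in T13, 1109.9 and 720.8 in HET, and 387.2 and 426.4 in CON. In whole inflorescences, fewer cells of a type and less RNA per cell cannot be told apart.

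The summed markers of late pollen were nearer to CON in T14 than in T13 or HET. The 6 of 7 with a probe set summed to 1023 and 1600.1 in T14, 327.2 and 331.3 in T13, 191.2 and 187.5 in HET, and 1560.3 and 1631.4 in CON. The T14 arrays were several times above those of T13 and HET, and 1 of the 2 lay within the CON range. Of the 5 kept, 4 overlapped between T14 and CON. The brightest, the polygalacturonase AT3G07820, did not, with 389.1 and 710 in T14, 185.8 and 164.5 in T13, 106.9 and 103.4 in HET, and 753 and 782.3 in CON (log2 -0.53, limma adjusted p = 0.831). The pectinesterase AT3G17060 had 144.8 and 156.1 in T14, 7.2 and 26.7 in T13, 10.6 and 7.3 in HET, and 141.2 and 156 in CON. The part that anther stage or cell makeup has in these values was not tested.

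**Figure D2:**
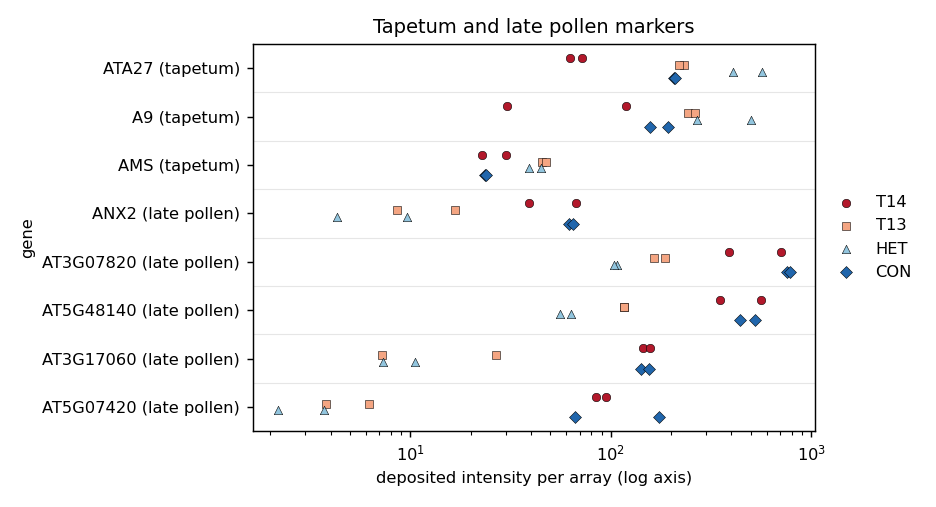
Intensity of the kept tapetum and late pollen markers on a log axis, with 1 point per array. ATA27 and A9 are lowest in T14, while the T14 values of late pollen markers lie nearer to CON than those of T13 and HET, with both T14 arrays below CON in AT3G07820.

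Genes on the higher side differed by less. The 15 with the widest gaps had gaps of 0.631 to 0.79, log2 differences of 0.69 to 1.26 and limma adjusted p-values of 0.281 to 0.8, so none passed. AT4G33960 came first, with 66.3 and 87.4 in T14, 69.3 and 57.9 in T13, 57.8 and 49 in HET, and 31.6 and 25.3 in CON (log2 1.06, limma adjusted p = 0.281). All 6 arrays of the insertion lines lay above both CON arrays for this gene.

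**Figure D3:**
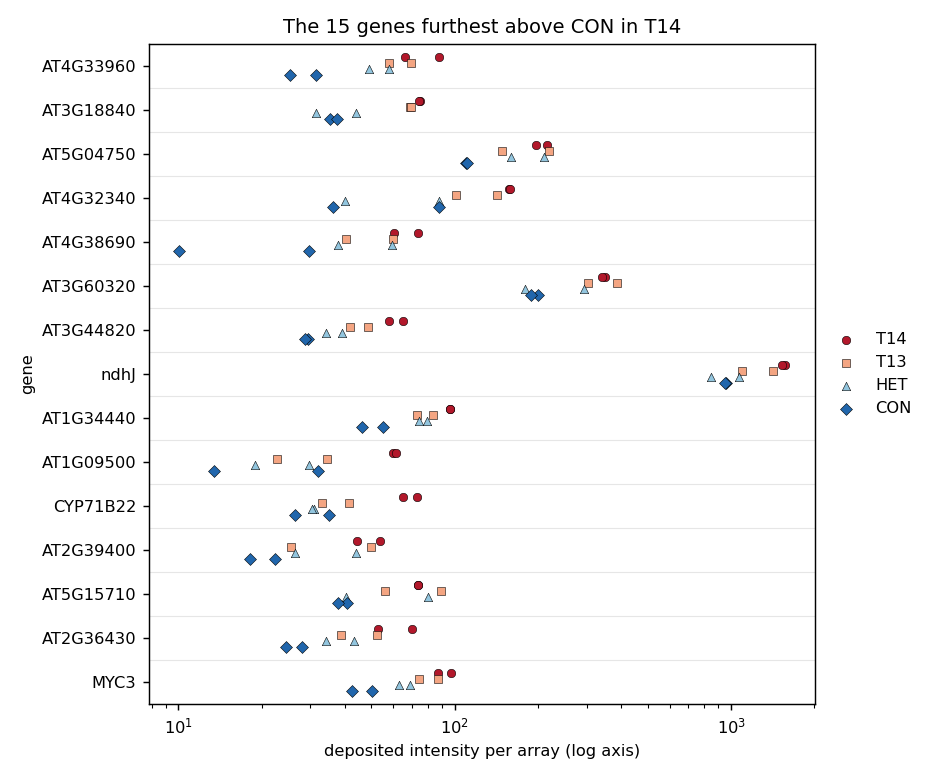
Intensity of the 15 genes with the widest gap above CON, on a log axis, with 1 point per array and genes ordered by gap. Both T14 arrays lie right of both CON arrays in every gene, and most T13 and HET arrays lie between the CON and the T14 level or at either of them.

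MYC3, a transcription factor of jasmonate signalling, had 86.7 and 96.6 in T14, 74 and 87.2 in T13, 63.1 and 69 in HET, and 42.4 and 50.3 in CON. The difference from CON was 0.79 (limma adjusted p = 0.47), and T14 overlapped with T13. The phospholipase C-like gene AT4G38690 had the largest log2 difference of the 15, 1.26, with 73.8 and 60.1 in T14, 59.9 and 40.4 in T13, 37.9 and 59.3 in HET, and 10.1 and 29.7 in CON. AT4G32340 read 157.7 and 158.8 in T14, 101.5 and 142.3 in T13, 40.2 and 87.9 in HET, and 36.3 and 87.5 in CON (log2 1.24). Its T14 arrays were close to each other while the CON arrays lay far apart.

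Among genes of known families, the pentatricopeptide repeat gene AT3G18840, of a family that processes organelle RNA, had 75.1 and 74.3 in T14, 68.9 and 69.3 in T13, 31.4 and 43.9 in HET, and 35.5 and 37.4 in CON. AT3G44820, of the NPH3 family named after a phototropism gene, had 65.2 and 57.8 in T14, 48.6 and 41.8 in T13, 34.2 and 39 in HET, and 29.5 and 28.8 in CON. The F-box gene AT5G15710 had 73.6 and 73.5 in T14, 89.3 and 55.8 in T13, 40.6 and 80.1 in HET, and 40.9 and 37.7 in CON. T13 resembled T14 more than CON in the first of these, and overlapped with T14 in the third.

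CYP71B22, a cytochrome P450, stood out from the other lines more than most, at 72.9 and 65 in T14, 33.2 and 41.3 in T13, 30.9 and 30.4 in HET, and 26.5 and 35.2 in CON (log2 0.86, limma adjusted p = 0.666). The 2 probe sets at least 0.5 above all other arrays were those of AT1G09500 and AT4G16745. AT1G09500, of the cinnamyl-alcohol dehydrogenase-like family, had 60 and 61.2 in T14, 22.8 and 34.4 in T13, 29.6 and 19 in HET, and 13.5 and 32 in CON. AT4G16745, of the exostosin family of glycosyltransferases, had 63.9 and 50 in T14, 22.5 and 19.8 in T13, 2.6 and 12.6 in HET, and 16.4 and 27.8 in CON. Their log2 differences from CON were 1.03 and 0.95, with limma adjusted p-values of 0.758 and 0.8. CYP71B22, AT1G09500 and AT4G16745 passed the filter only through their T14 arrays, so high values in T14 were a condition of their being tested.

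The rest of this group was close in size. AT5G04750 had 215.9 and 196.4 in T14 against 109.7 and 110.4 in CON, and AT3G60320 had 349.5 and 341 in T14 against 200.4 and 189.5 in CON. AT1G34440 had 96.3 and 96.5 in T14 against 54.9 and 46.2 in CON. AT2G39400 read 53.7 and 44.3 in T14 against 18.1 and 22.3 in CON, and AT2G36430 read 52.8 and 69.9 in T14 against 28 and 24.6 in CON. Their log2 differences ran from 0.76 for AT1G34440 to 0.86 for AT2G36430.

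The function lists held 114 kept genes besides those of the plastid genome, of which 0 were called in limma and 13 (11.4%) had an unadjusted p under 0.05, against 5.82% of all kept probe sets. The lists were chosen with earlier results of these data known and include TCP15 itself, so this share is not an independent result. Shares of non-overlapping genes in a list are to be read against the 14.8% lower and 20.4% higher over all 1-gene probe sets. The list of the TCP family matched 1 probe set, that of TCP15, so other TCP genes were not covered. For the cell cycle 4 genes were kept, 2 of them with non-overlapping lower values and a median log2 difference of -0.24. These were the mitotic Aurora kinases AUR1, with 148.1 and 171.6 in T14 against 229.5 and 185.9 in CON, and AUR3, with 43.4 and 56.7 in T14 against 60.9 and 77.9 in CON.

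Of 5 kept histone genes, 3 had non-overlapping lower values and 1 non-overlapping higher ones, with a median of -0.49. The lower ones encode histone H2B, which is made mainly when DNA is replicated. HTB1 had 323.2 and 414 in T14 against 573.3 and 605.2 in CON, HTB2 123.5 and 171.4 in T14 against 356.9 and 194.9 in CON, and HTB4 456.8 and 505.5 in T14 against 744.9 and 625.7 in CON. Their log2 differences were -0.66, -0.79 and -0.49, and none passed in limma (adjusted p = 0.8 to 0.831). In T13 the HTB2 arrays read 148.7 and 137.4, so that lower values were not confined to T14.

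Hormone lists held few kept genes. Among 9 auxin genes, 0 were consistently lower or higher and 1, the auxin glucosyltransferase IAGLU, had non-overlapping higher values, with a median of -0.10. For cytokinin 2 response regulators were kept and went opposite ways. RR16 had 33.7 and 38.3 in T14 against 50.1 and 44.8 in CON, and ARR15 had 36.4 and 46.4 in T14 against 29.5 and 36 in CON. The gibberellin genes SPY and GID1A overlapped between the groups, as did the ethylene factor EIN3. The 5 jasmonate and defence genes had a median of -0.03, with 1 non-overlapping lower, ZAP1, and 1 non-overlapping higher, WRKY20.

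Among floral identity and meristem genes 11 of 49 with a probe set were kept, and their median log2 difference was 0.01. AGL18 and YAB3 had non-overlapping lower values and AGL16 and AGL42 non-overlapping higher ones, with log2 differences from -0.36 for AGL18 to 0.35 for AGL42. The 16 kept genes of cell wall loosening, expansins and xyloglucan-modifying enzymes, had a median of -0.12, with 2 non-overlapping lower and 3 higher. The largest difference among the latter was that of the expansin-like gene EXLA2, at 119.2 and 109 in T14 against 66.5 and 75.2 in CON (log2 0.58). EXPA4 had 152.3 and 66.6 in T14 against 160.8 and 141.6 in CON, with 1 T14 array near CON and 1 far below.

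Cold, drought and abscisic acid genes went both ways. Besides DI21, the chloroplast protectant COR15A had 103.9 and 52.6 in T14 against 139.1 and 155.4 in CON (log2 -0.85). The dehydrin COR47 had 1547.2 and 875 in T14 against 697.8 and 624.1 in CON (log2 0.80). Of 9 kept genes 2 were non-overlapping lower and 3 higher, with a median of 0.24. Outside the lists, the flavonol rhamnosyltransferase UGT78D1 had 78.4 and 80.6 in T14 against 167.3 and 124.4 in CON, and AT1G06000, a rhamnosyltransferase that acts at another position, had 89.2 and 82.7 in T14, 181.8 and 61.8 in T13, 384.5 and 158.1 in HET, and 338.7 and 161.4 in CON. Neither passed against CON (limma adjusted p = 0.8 each), and the T13 arrays straddled T14 in AT1G06000. The flavonoid list kept 2 genes, DFR and CHIL, whose groups overlapped.

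The lists also left out other genes with a gap of at least 0.5. The glutathione transferase GSTU20 had 175.7 and 209.1 in T14, 222.6 and 197.7 in T13, 732.2 and 324.1 in HET, and 548.9 and 381.7 in CON. AOP3, a dioxygenase of glucosinolate synthesis, had 17.3 and 11.1 in T14 against 45.6 and 37 in CON. Their differences from CON did not pass (limma adjusted p = 0.622 and 0.8). The dioxygenase-like gene 2A6 had 24.7 and 37.8 in T14, 84.7 and 108.8 in T13, 22.1 and 31.5 in HET, and 92 and 75.8 in CON, and only its difference from T13 passed (log2 -1.26, limma adjusted p = 0.0477), a call that held in 3 of 18 alternatives.

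Of 10 kept cytochrome P450 genes 3 were non-overlapping higher and 0 lower, with a median of 0.17. Of 10 kept beta-glucosidases 5 were non-overlapping higher and 0 lower, with a median of 0.09. BGLU46 had 48.3 and 43.5 in T14 against 17.1 and 24.3 in CON, BGLU45 46 and 55.6 in T14 against 21.6 and 36.6 in CON, and BGLU44 609.2 and 524.7 in T14 against 274.6 and 475.8 in CON. ATA27, a beta-glucosidase too, went the opposite way and was counted with the tapetum. Ribosomal protein genes of the cytosol had no named member in their list, but AT5G48760, of the L13 type, was consistently lower, with 201 and 252.7 in T14, 470.4 and 474.8 in T13, 248.7 and 261.1 in HET, and 486.4 and 476.7 in CON (log2 -1.04, limma adjusted p = 0.178).

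Nuclear photosynthesis genes had a median of 0.18 over 10 genes, with 1 non-overlapping lower, LHCB4.3, and 2 higher. LHCB4.3 had 279.9 and 196.2 in T14 against 404.6 and 319.7 in CON, while the Rubisco activase RCA had 3396 and 2416.4 in T14 against 2314.2 and 2405.2 in CON. Among peroxidases 5 were kept, with a median of 0.01, 2 non-overlapping lower and 0 higher. The lowest was SAPX, a chloroplast ascorbate peroxidase, with 140.3 and 154.3 in T14 against 249.3 and 216.9 in CON (log2 -0.61). PRXR1 had the highest difference (log2 0.49), with overlapping groups. The 4 kept genes of pollen wall and tube had a median of 0.24, with 2 non-overlapping higher. Those were PMEPCRF, at 48.7 and 55 in T14 against 42.6 and 33.1 in CON, and ATPMEPCRB, at 42.4 and 49.1 against 37.5 and 41.7. In ANX2, also a late pollen marker, the groups overlapped and the difference was negative (log2 -0.23). ANX2 had 8.6 and 16.8 in T13 and 4.3 and 9.6 in HET, whereas PMEPCRF had 38.2 and 42.9 in T13 and 36.4 and 28.3 in HET.

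Genes encoded in the plastid genome, 69 of which were kept, tended to read higher in T14. Of these, 66 had a positive log2 difference and 41 (59.4%) had non-overlapping higher values, against 1641 of 8195 nuclear probe sets (20.0%). The median log2 difference was 0.38 over plastid genes and 0.03 over nuclear ones, and single genes ranged from -0.51 for ndhF to 0.77 for atpA. None was called in limma, with a lowest adjusted p of 0.758, and 11 (15.9%) had an unadjusted p under 0.05, against 5.82% of all kept probe sets. The genes share one genome and are transcribed in long units, so they are not independent. Their list, like the others, was chosen with earlier results of these data known.

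**Figure D4:**
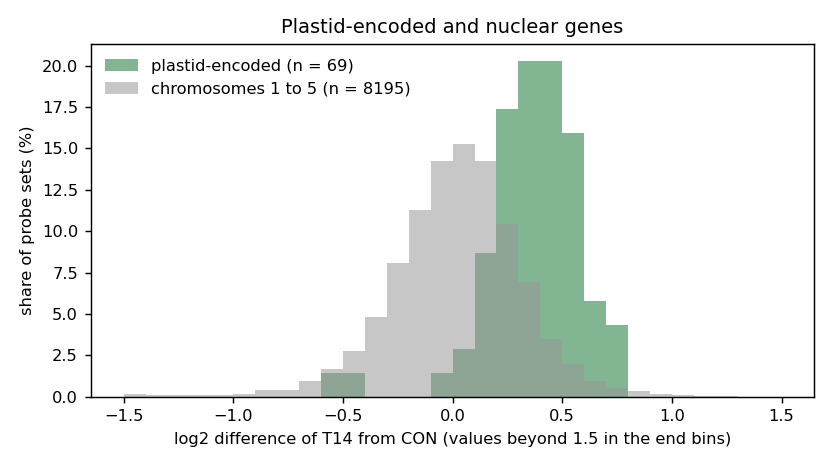
Distribution of the log2 difference of T14 from CON for 69 plastid-encoded probe sets and for 8195 on chromosomes 1 to 5, as shares of each set in percent. The plastid distribution has its median at 0.38 and the nuclear one at 0.03.

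By gene, ndhJ, a subunit of the plastid NAD(P)H dehydrogenase, had 1568.6 and 1530.9 in T14, 1094 and 1415.7 in T13, 842.7 and 1071.9 in HET, and 957 and 953.4 in CON. The photosystem I subunit psaC had 2818.8 and 3108.5 in T14, 2897.5 and 3237.5 in T13, 891.4 and 2314.9 in HET, and 1977.5 and 1919.1 in CON. Those 2 were the consistently higher plastid genes (2.9% of 69). The ATP synthase subunit atpA had 4013.4 and 4968 in T14 against 2143.8 and 3190 in CON.

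The median plastid intensity was 1799.1 and 2349.7 in T14, 1856.9 and 2352.4 in T13, 891.4 and 1727.2 in HET, and 1478.8 and 1735.8 in CON. T14 minus T13 had a median log2 difference of 0.02 over these genes, and T14 minus HET one of 0.57, with 0 called in limma in either. The lowest array, HET replicate 1, also had a 5'/3' signal ratio of 0.345 for the GAPDH control, against 0.0969 and 0.0718 on the T14 arrays and 0.086 and 0.129 on the CON arrays. The part of RNA quality or labelling in the plastid values was not tested.

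By chromosome, consistently lower genes were most frequent on chromosome 1, with 27 of 2167 kept probe sets (1.25%). The shares were 0.743% on chromosome 2 (9 genes), 0.362% on chromosome 3 (6), 0.671% on chromosome 4 (8) and 0.814% on chromosome 5 (16), and 0 plastid genes were consistently lower. Consistently higher genes were spread more evenly, at 0.508% on chromosome 1, 0.743% on chromosome 2, 0.603% on chromosome 3, 0.671% on chromosome 4 and 0.458% on chromosome 5. No test of the difference between chromosomes was made. Median log2 differences ran from 0.02 to 0.06 over the 5 chromosomes.

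**Figure D5:**
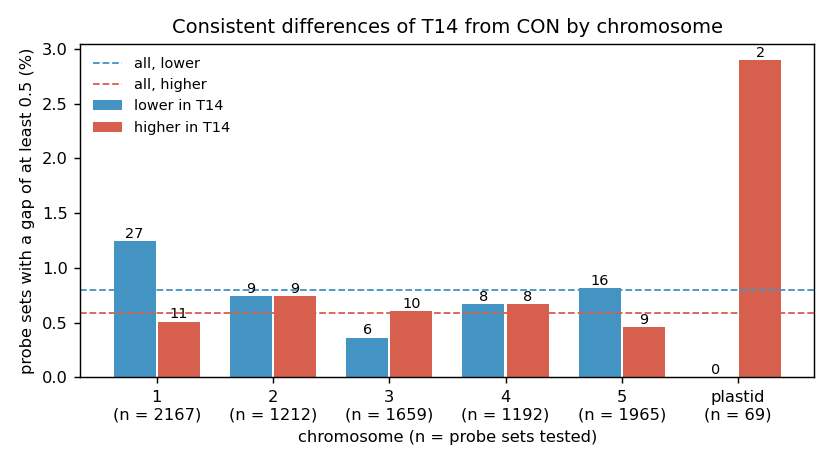
Share of kept 1-gene probe sets on each chromosome and in the plastid whose gap between T14 and CON is at least 0.5, in percent, with counts above the bars and the share over all such probe sets as dashed lines. Lower genes are most frequent on chromosome 1, at 1.25%, and the plastid bar rests on 2 genes.

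Of all 66 consistently lower genes, 27 lay on chromosome 1, which held 2167 of the 8286 kept 1-gene probe sets. Of the 13 with a gap of at least 1, 8 were there, and of the 8 with the widest gaps 3 were, so the share did not grow steadily with the gap. Also on chromosome 1 were 6 of the 10 that lay beyond all other arrays and 8 of the 15 furthest below CON. The 15 furthest above CON were spread over chromosomes 1 (2), 2 (2), 3 (4), 4 (3) and 5 (3) and the plastid (1).

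The kept neighbours of TCP15 were too few to show whether lower genes gather around it, at a share of 1.25% on chromosome 1. Of the 20 kept genes within 50 locus tags on each side of it, 0 were consistently lower and 1, AT1G69890, was consistently higher, with 81.4 and 100.9 in T14, 70.2 and 74.8 in T13, 41.1 and 56.4 in HET, and 44.9 and 48.9 in CON. Among these neighbours 4 had non-overlapping lower values and 5 non-overlapping higher ones. The shares over all 1-gene probe sets were 14.8% lower and 20.4% higher. The neighbours had a median log2 difference of 0.05 and a range from -0.50 to 0.76. The next gene, HVA22C, of a family induced by abscisic acid in barley, had 223 and 293.4 in T14 against 242.4 and 303.8 in CON. HEMB1, an enzyme of tetrapyrrole synthesis 5 genes away, had 402.6 and 356.6 in T14 against 421.4 and 494.3 in CON. AT1G68875 lies 118 genes from TCP15, outside this window.

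The densest stretch of lower genes on this chromosome was that of locus numbers AT1G20010 to AT1G29980, with 6 of 307 (1.95%). The adjoining one, AT1G30020 to AT1G36990, was practically as dense with 3 of 157 (1.91%). On chromosome 5 the stretch AT5G30490 to AT5G39990 was denser, with 3 of 122 (2.46%). In the stretch AT1G20010 to AT1G29980 the lower genes were AT1G23960, AT1G20120, AT1G21770, AT1G20220, AT1G24610 and AT1G23350. AT1G21770 had 66.7 and 93.4 in T14, 173.8 and 195.7 in T13, 57.2 and 98.6 in HET, and 292.3 and 189.7 in CON (log2 -1.40, limma adjusted p = 0.178). The called probe set 245651_s_at belongs to this stretch as well. Probe set 245638_s_at, annotated to AT1G24822, AT1G24996 and AT1G25097, read 40 and 27.8 in T14, 271.9 and 275.9 in T13, 10.6 and 72.7 in HET, and 349.9 and 179 in CON (log2 -2.43, limma adjusted p = 0.178). Probe set 262319_s_at, annotated to AT1G27540 and AT1G27580, read 97.6 and 87.6 in T14, 445 and 154 in T13, 91.4 and 221.7 in HET, and 568 and 315.2 in CON (log2 -2.02, limma adjusted p = 0.402). In AT1G23960, AT1G21770, 245651_s_at and 245638_s_at both HET arrays lay below both T13 arrays. This was not so in the other members of the stretch. HET and T13 overlapped in 262319_s_at, AT1G20120, AT1G20220 and AT1G23350, and AT1G24610 had 59.7 and 81.8 in T14, 86.3 and 68.1 in T13, 97 and 119.4 in HET, and 132.1 and 136.2 in CON, with HET above T13. HET minus CON was -2.48 for AT1G23960 (limma adjusted p = 0.000929), -1.46 for AT1G21770 (0.0202) and -2.26 for 245651_s_at (0.00631). The T14 and HET comparisons use the same CON arrays, and whether the lines differ in their chromosome 1 sequence was not tested.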

How the data were processed

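Total RNA of pooled inflorescences was labelled and hybridised to ATH1 arrays, 1 sample per array, per the labels' protocols. The authors deposited 1 linear intensity per probe set and array for 22810 probe sets, and no source used here names the software that made them. Trimmed by 2% at either end, every array averaged 100, so no further scaling was applied. Gene names are those of the platform annotation with symbols from RefSeq (TAIR10.1): 13513 probe sets had 1 gene, 503 several and 8794 were not listed. No coordinates are given because the files name no genome build, and roles are background knowledge.

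Control probe sets were left out. Probe sets were retained if they were at or above the 40th percentile on 2 or more arrays. limma 3.58.1 in R 4.3.3 (lmFit, eBayes with trend) was run on log2(intensity + 16) over all 8 arrays in 4 groups, with 4 residual and 7.39 prior degrees of freedom and Benjamini-Hochberg adjustment within each comparison. The fit was tried on data simulated with independent normal errors at limma's own estimate of the spread. It recovered 64 of 100 changes of 2-fold and 100 of 100 of 4-fold, with 11 false calls. No changes were placed in the dimmest probe sets. The simulation therefore cannot show how the fit fares on dim genes or on errors shared between probe sets. T14 against T13 and T14 against HET served for named genes, plastid genes and background counts.

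Genes were named by rule: TCP15, all called probe sets, the 15 widest gaps on each side, up to 4 consistent members per list and the nearest neighbours of TCP15. Others were named after their values were seen. The comparison, the lists and their members were chosen with earlier results of these data known, and some list patterns were edited after their matches were seen. Lists other than the plastid one matched gene symbols and synonyms only. Genes such as the TRAF-like AT1G65370 and the F-box genes AT1G10110 and AT5G15710 were therefore missed. Lists of cytosolic ribosomal proteins, disease resistance receptors, TRAF and MATH domain and transposable element genes matched 0 probe sets. That of heat shock genes matched 1, which was not kept. Lists with 1 kept member besides TCP15 were F-box and kelch (FBL17, log2 -0.21), lipid transfer and cuticle (SHN3, 0.10) and circadian clock (GI, 0.08). Alternatives covered pseudocount, filter, scaling, variance prior, array weights, covariates, fitting T14 and CON alone, and leaving out each array. Promoter motifs were not analysed here.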

Additional observations from a re-analysis of the deposited data

Results flagged for a closer look

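Because CON enters both sides, a difference between the T14 and T13 or HET effects is the same as the direct contrast of those lines, which was tested in limma. Most calls between the lines went the other way, with 57 probe sets called higher and 18 lower in T14 than in T13, and 110 higher and 36 lower than in HET. The 66 genes consistently lower than in CON were chosen for low T14 values, which favours lower calls against the other lines too. Among them, 7 were called lower and 0 higher than in T13, and 9 lower and 2 higher than in HET. The 2 higher ones were AT1G78460 (1.91, adjusted p = 0.00082) and AT1G58120 (1.53, 0.0453). In the other named cases T14 was the lower line, and all values are log2 differences with adjusted p. Against both lines T14 was lower for TCP15 (-1.249 from T13, adjusted p = 0.0244, and -1.245 from HET, 0.01), AT1G68875 (-2.443, 0.0165, and -3.005, 0.000546), ATA27 (-1.539, 0.02, and -2.58, 0.000285) and AT5G48210 (-1.38, 0.0244, and -2.26, 0.000546). HET was itself called higher than CON in limma for ATA27 (1.15, adjusted p = 0.0187) and AT5G48210 (1.19, 0.0153). For these genes the difference of T14 from CON did not pass.

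Among named genes, lower values in T14 passed against T13 alone for AT1G23960 (-1.912, adjusted p = 0.0244), the 5-locus probe set 245651_s_at (-2.189, 0.0244), DI21 (-1.65, 0.0387) and 2A6 (-1.26, 0.0477). They passed against HET alone for AT5G07230 (-2.275, 0.0227), AT3G05500 (-1.969, 0.026), AT1G30020 (-1.568, 0.0122), AT1G20120 (-1.28, 0.0304) and AT2G03850 (-1.217, 0.0134). These genes were picked for being low in T14, so the direction was not free. Over 18 alternatives the contrasts of AT1G68875, ATA27 and AT5G48210 with HET each passed in 17, that of TCP15 with T13 in 12 and with HET in 14, and that of 2A6 with T13 in 3. With scanner background as a covariate 0 of the 8 named contrasts with T13 passed (adjusted p = 0.299 to 0.999) and 7 of the 9 with HET did. With the GAPDH 5'/3' ratio as a covariate 0 of the 9 contrasts with HET passed (0.105 to 0.999), among them TCP15 (0.476), AT1G68875 and ATA27 (0.105 each) and AT5G48210 (0.151), and 4 of the 8 with T13 did. These 17 contrasts kept their direction in all 18. Groups of 2 arrays are too small for the outlier check.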

How the results depend on the processing

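The 3 lower calls became 0 with a pseudocount of 1, without the filter or with scanner background as a covariate, 1 with no trend in the prior, 5 with quantile normalization and 7 with T14 and CON fitted alone. Leaving out each array in turn gave from 0 to 5. At an unadjusted p under 0.05 limma still had 857, 1306 and 450 probe sets in the first 3 of these settings, 572 without CON replicate 1 and 849 without T14 replicate 1, where 0 were called. Without CON replicate 2 there was 1 call, ECS1. Higher calls stayed at 0 throughout. Consistently lower probe sets (123) became 191 with a pseudocount of 1 and from 121 to 693 without 1 array. Consistently higher ones (83) became 177 with a pseudocount of 1, 36 with 32, 168 without the filter, 40 with the 60th percentile and from 80 to 660 without 1 array. A gap over fewer arrays is wider by construction. Of 1295 values of 70 named genes over the alternatives, 1292 kept their direction. The exceptions were HVA22C (from -0.2664 without T14 replicate 2 to 0.1061 without T14 replicate 1, and 0.0736 without CON replicate 2) and AMS (from -0.0368 without T14 replicate 2 to 0.2094 without T14 replicate 1), and their cause was not tested. The kept directions were largely fixed beforehand. Most of these genes have groups that do not overlap, and leaving out an array cannot reverse such a gene. Changing the filter or the prior, or leaving out T13 or HET arrays, does not alter the log2 difference of T14 from CON. Outside the 3 calls, AT4G23670, ATA27, DI21 and ECS1 each passed in 1 alternative. No paired analysis was possible because the labels give no replicate numbers. The number of arrays limits the precision, no detection calls were used, and dim genes carry the widest error.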

Other observations

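Probe sets without a single annotated gene made up part of the consistent differences: 50 unlisted and 7 with several genes were lower in T14, and 29 and 5 were higher. Probe set 250433_at, annotated to 5 histone H3 loci, AT1G09200, AT3G27360, AT5G10390, AT5G10400 and AT5G65360, read 4.4 and 17.3 in T14, 24.4 and 42.2 in T13, 30.4 and 11.8 in HET, and 151.3 and 66.7 in CON (log2 -2.17, limma adjusted p = 0.178). CON lay above the 6 other arrays for it. The unlisted probe set 245501_at read 3.8 and 0.7 in T14, 4.6 and 23.8 in T13, 0.8 and 2.9 in HET, and 174 and 74 in CON (log2 -2.85, limma adjusted p = 0.13).

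Other unlisted probe sets were low in T14 and high in HET. Probe set 250610_at read 144.7 and 90.1 in T14, 615.1 and 344.6 in T13, 1127.8 and 706.7 in HET, and 596 and 524.6 in CON. Probe set 252063_at read 43.3 and 49.1 in T14, 296.5 and 232.3 in T13, 766.5 and 498.7 in HET, and 162.1 and 242.2 in CON. Both had a limma adjusted p of 0.0606 against CON. A probe set shared by ATA20 and AT3G15395 read 457 and 402 in T14, 1317.9 and 1187.3 in T13, 1834.3 and 1690.2 in HET, and 797.1 and 1015.7 in CON, in the same order of lines as ATA27.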
